A study of Mus musculus with 12 samples.

Results

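The genes described here are 10 genes of glycolysis, Hk1, Gpi1, Pfkm, Aldoa, Aldoc, Gapdh, Pgk1, Pkm, Ldha and Ldhb. They were chosen by name from the 27833 genes of an RNA-seq table of mouse hippocampus, and all 10 passed the filter on low values that left 13796 genes for testing. Glycolysis splits glucose into pyruvate in the cytosol, with a small yield of ATP, and lactate dehydrogenase converts pyruvate and lactate into each other. In the brain, glucose is the main fuel. Astrocytes are known for a high rate of glycolysis and for lactate that neurons can take up, while neurons rely more on oxidation in mitochondria. Within the pathway, Hk1 phosphorylates glucose, Gpi1 and Pfkm carry it to fructose 1,6-bisphosphate, Aldoa and Aldoc split that sugar, Gapdh, Pgk1 and Pkm harvest energy in the later steps, and Ldha and Ldhb are the subunits of lactate dehydrogenase.

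The libraries came from naturally aged male C57BL/6J wild-type mice of 20 months, which were gavaged daily for 14 days. The CON group (3 libraries) received normal saline, the PQQ-L group (5 libraries) pyrroloquinoline quinone (PQQ) at 5 mg/kg/day and the PQQ-H group (4 libraries) PQQ at 10 mg/kg/day in the same vehicle. PQQ is a redox-active quinone that serves some bacteria as an enzyme cofactor, and the comparisons ask how its 2 doses affect hippocampal transcripts in old mice. No young group was analysed here, and by the study's methods the mice were without food for 12 h before tissue was collected.

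Ldhb varied most between libraries of the 10 genes and Ldha is its partner in the same enzyme, so the bases just upstream of their starts are shown side by side. The sequences are the 250 bases before the start in RefSeq on GRCm38.p6, a build other than the mm39 named in the submitters' processing notes. Capitals mark ACGTG or its reverse complement CACGT, a form of the core of a hypoxia response element, searched on both strands. The other form of this core, GCGTG, was not searched or marked, and the Ldhb window below holds it. The matches counted here are thus of the ACGTG form only. A full CACGTG, which is also an E-box, counts as 2 overlapping matches.
Ldha, plus strand, chr7:46845554-46845803: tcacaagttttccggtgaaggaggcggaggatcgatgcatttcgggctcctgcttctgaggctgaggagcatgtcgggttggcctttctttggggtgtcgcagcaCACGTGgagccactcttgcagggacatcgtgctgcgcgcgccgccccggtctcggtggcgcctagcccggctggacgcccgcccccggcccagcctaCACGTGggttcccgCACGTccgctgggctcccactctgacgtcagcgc
Ldhb, minus strand, chr6:142507958-142508207: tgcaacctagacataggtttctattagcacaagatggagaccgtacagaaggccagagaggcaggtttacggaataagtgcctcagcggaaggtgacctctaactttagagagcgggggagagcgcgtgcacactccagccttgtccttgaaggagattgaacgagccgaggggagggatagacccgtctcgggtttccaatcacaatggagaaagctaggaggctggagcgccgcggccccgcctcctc
This Ldha window held 5 matches, a number reached by 44 of 32851 promoters (0.134%), and the Ldhb window held 0. A further Ldha start in RefSeq also had 0 matches in the bases before it. At least 1 match stood in 16.6% of all promoters of this length and in 7 of the 19 promoters of the 10 genes, which belong to Ldha, Aldoa, Pkm, Pfkm and Pgk1. A match is a string of letters and not a measured binding site, and 0 matches says only that the string is not in this window.

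Expression is given as FPKM, a level per length of the gene and per size of the library. Between 29654553 and 38179496 reads per library fell on genes. The libraries differed in markers of other cell types, partly along the groups and partly across them. Along the groups, the summed FPKM of 12 choroid plexus markers was 1545 to 5456 in CON, 48.5 to 122 in PQQ-L and 20.7 to 34.3 in PQQ-H, without overlap. Meningeal fibroblast markers (68.4 to 119 in CON, 29.6 to 73.0 in PQQ-L and 21.0 to 25.8 in PQQ-H) and ependymal markers (38.8 to 55.4, 20.4 to 39.7 and 10.3 to 29.5) did not overlap between CON and PQQ-H. Between the doses, the choroid plexus and meningeal sums again did not overlap, while the ependymal sums did. In PQQ-L vs. CON, the meningeal and ependymal sums overlapped. Each comparison that follows thus came with a difference in at least the choroid plexus sums, and the part of these sets was not tested. The summed FPKM of 12 marker genes of striatal medium spiny neurons, a cell type of the striatum and not of the hippocampus, was 1365 to 3426 in 4 libraries (PQQ-H 1, CON 1, PQQ-H 2 and CON 3) and 37.7 to 183 in the other 8. In the same 4 libraries the sums of 10 hippocampal pyramidal markers (65.5 to 143) and of 10 dentate granule markers (50.4 to 78.8) lay below those of the other 8 (180.2 to 378 and 106 to 192), so hippocampal markers were detected in every library but at unequal levels. General neuronal markers were also lower there (2652 to 2830.3 against 3182 to 3328) and oligodendrocyte (1987 to 3087 against 1079 to 1877), microglial (423 to 549 against 291 to 366) and endothelial markers (135 to 174 against 102 to 129) higher, while astrocyte markers overlapped. No gene of any marker list was at 0 in all libraries. In whole tissue, fewer cells of a type and less RNA per cell cannot be told apart.

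Ldhb and Aldoc had the highest FPKM of the 10 genes and Aldoa by far the lowest. The medians over the 12 libraries were 379.8 for Ldhb, 361 for Aldoc, 227 for Pgk1, 206 for Gpi1, 189.9 for Pkm, 114 for Pfkm, 73.5 for Hk1, 57.1 for Gapdh, 54.2 for Ldha and 2.81 for Aldoa. The ranges over libraries overlapped between Ldhb and Aldoc, between Pgk1, Gpi1 and Pkm, and between Hk1, Gapdh and Ldha. These ranges alone do not settle the order inside each set. Within libraries, Gpi1 was above Pkm in all 12, while the order of Ldhb and Aldoc changed between libraries. The levels also rest on the gene lengths behind the FPKM, which were 1304 bases for Ldhb and 5342 for Ldha, and up to 7687 for Pkm.

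**Figure D1:**
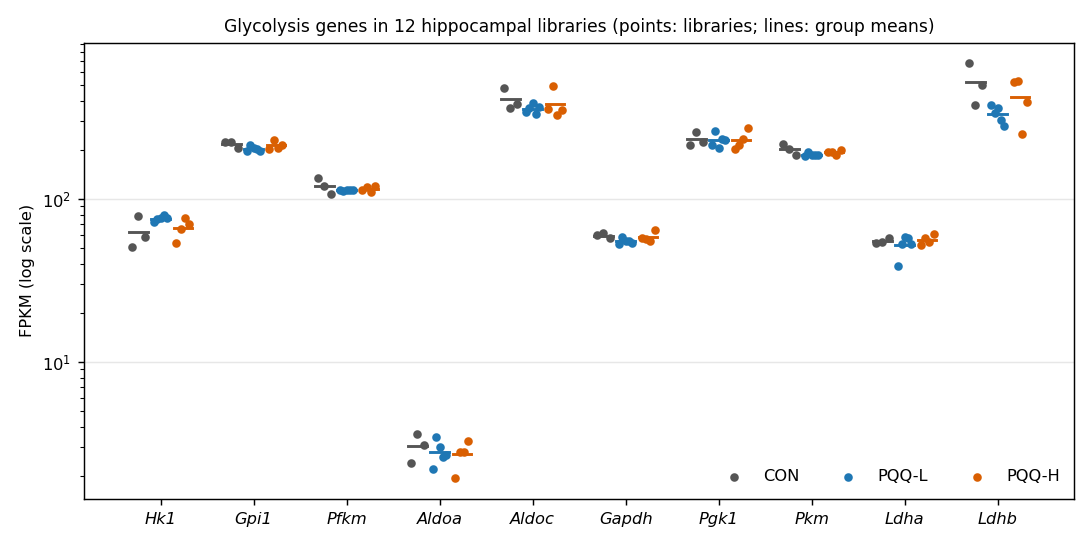
FPKM (log axis) of the 10 glycolysis genes in the 12 libraries, with 1 point per library, coloured by group, and a line at each group mean. The points of a gene lie close together for Gpi1 (196 to 231) and widely apart for Ldhb (252 to 679.9), and Aldoa lies far below the others.

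At the entry of the pathway, Hk1, the main brain hexokinase, was measured at an FPKM of 50.4, 78.3 and 58.8 in CON. The PQQ-L libraries had 72.1, 74.9, 76.1, 79.8 and 76.0. The PQQ-H libraries had 53.8, 65.0, 76.5 and 69.8. PQQ-L was thus the narrow group, and CON and PQQ-H each held low and high libraries, so that all 3 groups overlapped. The means were 62.5 ± 14.3 (SD, n = 3), 75.8 ± 2.75 (n = 5) and 66.3 ± 9.53 (n = 4). Gpi1, glucose-6-phosphate isomerase, was nearly flat, with means of 218 ± 10.4 in CON, 204 ± 7.53 in PQQ-L and 214 ± 12.4 in PQQ-H. Pfkm, the muscle-type subunit of the rate-limiting phosphofructokinase, had means of 121 ± 13.0, 113 ± 1.04 and 115 ± 3.98, with its lowest (108) and highest (134) library both in CON.

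At the aldolase step, Aldoc, the brain isoform that is used as an astrocyte marker, far exceeded Aldoa, the isoform known from muscle and most tissues. Aldoc was at an FPKM of 483, 362 and 383 in CON. It was at 342, 360.4, 387, 331 and 365 in PQQ-L, and at 356, 492, 329.8 and 349.9 in PQQ-H. CON 1 and PQQ-H 2 were the high libraries, and the groups overlapped. The Aldoa row held 2.40, 3.62 and 3.09 in CON, 2.21, 3.45, 2.98, 2.60 and 2.67 in PQQ-L, and 1.93, 2.81, 2.80 and 3.28 in PQQ-H. These are only 125 to 243 reads per library, and the low row may not hold all Aldoa transcripts, since 2 gene entries carry this name in the GENCODE M21 annotation and the table has 1 row. Which entry the row stands for is not given in the sources used here.

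In the later steps, Gapdh, the dehydrogenase that first yields NADH, had means of 59.6 ± 2.08 in CON, 55.2 ± 2.19 in PQQ-L and 58.6 ± 3.97 in PQQ-H. Pgk1, the first enzyme to make ATP, had 232 ± 22.1, 229 ± 21.0 and 230.3 ± 30.4. Pkm, which makes pyruvate, had 203 ± 15.4, 187 ± 4.87 and 193 ± 6.44. Each of these genes overlapped between all groups. Gapdh and Pgk1 have many processed copies in the mouse genome, and 58.4% of the Gapdh and 68.0% of the Pgk1 stretches of 50 bases also occurred in transcripts of other genes in GENCODE M21. The share was 24.5% for Gpi1, 23.7% for Pkm, 21.0% for Ldhb, 10.4% for Ldha, 8.8% for Pfkm, 6.6% for Aldoa, 1.6% for Hk1 and 0 for Aldoc. How reads that fit several genes were counted is not given, so the levels of Gapdh and Pgk1 are uncertain, and the part of shared sequence in the levels was not tested.

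At the last step, Ldhb, the subunit known from heart and neurons, was the most variable of the 10 genes. Its FPKM was 679.9, 380.0 and 502 in CON. It was 379.6, 337, 361, 307 and 281 in PQQ-L, and 525, 529, 252 and 396 in PQQ-H. All PQQ-L libraries lay below all CON libraries, although PQQ-L 1 and CON 2 nearly touched, and the PQQ-H libraries spread over both. The means were 521 ± 151, 333 ± 39.8 and 426 ± 131. Ldha, the subunit known from muscle and from cells with a high rate of lactate production, was at 53.3, 54.2 and 57.6 in CON. It was at 38.6, 52.9, 58.5, 57.5 and 52.8 in PQQ-L, and at 52.0, 57.6, 54.3 and 61.3 in PQQ-H. Apart from PQQ-L 1, the Ldha values were close together and overlapped in all groups. These values rest on 11553 to 31494 reads per library for Ldhb and 7424 to 11195 for Ldha, so the gap between the subunits is smaller in reads than per length.

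Among the glycolysis genes chosen by name, and not among all enzymes of the pathway, the largest spread between libraries of 1 group was that of Ldhb. Its within-group SD was 0.37 on the log2 FPKM scale, larger than that of 77.5% of the genes tested, whose median was 0.21. Pkm (0.064), Gpi1 (0.068), Gapdh (0.071) and Pfkm (0.079) were among the steadiest genes of the table, with 1.6% to 4.5% of genes below them. Pgk1 (0.15), Ldha (0.17), Aldoc (0.19), Hk1 (0.20) and Aldoa (0.27) lay between. Counting error alone would give an SD of 0.0106 for Ldhb and 0.108 for Aldoa, so reads limit Aldoa most.

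**Figure D2:**
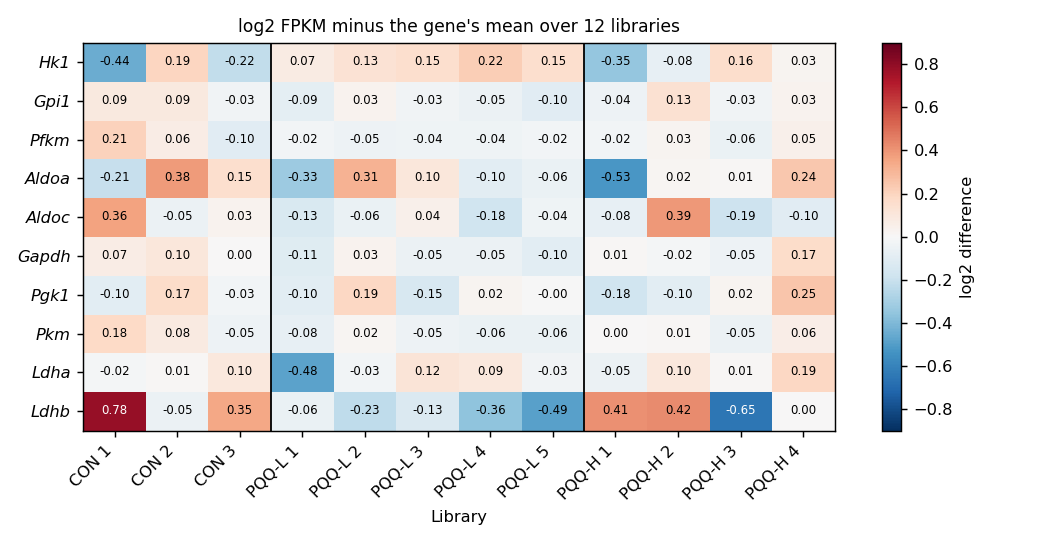
Heat map of log2 FPKM minus the mean of the gene over the 12 libraries, with genes in rows and libraries in columns, red for above and blue for below the mean. Ldhb is above its mean and Hk1 below its mean in PQQ-H 1, CON 1, PQQ-H 2 and CON 3, while Gpi1, Pfkm, Gapdh and Pkm stay pale throughout.

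With PQQ at 5 mg/kg/day, 0 of the 10 genes passed the thresholds against CON, an absolute log2 fold change (log2FC) above 1 and an adjusted p below 0.05, where 0.471% of all genes tested were called. The test was limma on log2(FPKM + 0.1) with Benjamini-Hochberg adjustment over all 13796 genes. At an unadjusted p below 0.05, Ldhb was lower, as were 11.6% of all genes, and Hk1 was higher, as were 8.92%. Ldhb had a log2FC of -0.61 (SE 0.25, 95% interval -1.15 to -0.074, limma adjusted p = 0.235), which is 0.65 times the CON level. Hk1 had a log2FC of 0.30 (SE 0.14, interval 0.0008 to 0.60, limma adjusted p = 0.242), or 1.23 times the CON level. Ldhb was also the 1 gene of the 10 whose groups did not overlap, against 10.6% of all genes. By shares, the 10 genes therefore stood near the background. With voom on recovered reads, Ldhb alone was under an unadjusted p of 0.05, and lower, as were 11.5% of all genes (8.77% were higher), and 0 of the 10 were under an adjusted one.

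Both values rested on which CON libraries were used. Without CON 2, Ldhb had a log2FC of -0.82 (limma adjusted p = 0.0470) and Hk1 0.48 (limma adjusted p = 0.0308), both still under the fold threshold. Without CON 1, the values were -0.40 and 0.16 (limma adjusted p = 0.863 for both). Without the 4 libraries of high striatal marker sum, which leaves 1 CON library, the log2FC of Ldhb was -0.20 and that of Hk1 -0.049. With the log2 striatal marker sum as a covariate, Ldhb had -0.18 (limma adjusted p = 0.769) and Hk1 0.072 (limma adjusted p = 0.873).

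The other 8 genes had a log2FC between -0.19 (Aldoc) and -0.021 (Pgk1) in PQQ-L vs. CON. Of these, Pkm had -0.12 (95% interval -0.26 to 0.025, limma adjusted p = 0.276). Gapdh had -0.11 (-0.25 to 0.031), Gpi1 -0.10 (-0.24 to 0.047) and Pfkm -0.085 (-0.24 to 0.068), so that these intervals leave out a change of more than about 0.3 on the log2 scale, while those of Aldoa (-0.53 to 0.30) and Aldoc (-0.48 to 0.11) are wider. In all, 9 of the 10 genes were below CON, with a median log2FC of -0.10 against -0.03 over all genes, 53.9% of which were lower, but the sign of small values depended on the scaling, since 8 were below CON with median-of-ratios factors and 5 with TPM. TPM moved the median of all genes to 0.08, and relative to the median of all genes 8 of the 10 genes were lower under all 3 scalings. A scaling moves all genes of a library alike, so this is the same result each time and no separate support.

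**Figure D3:**
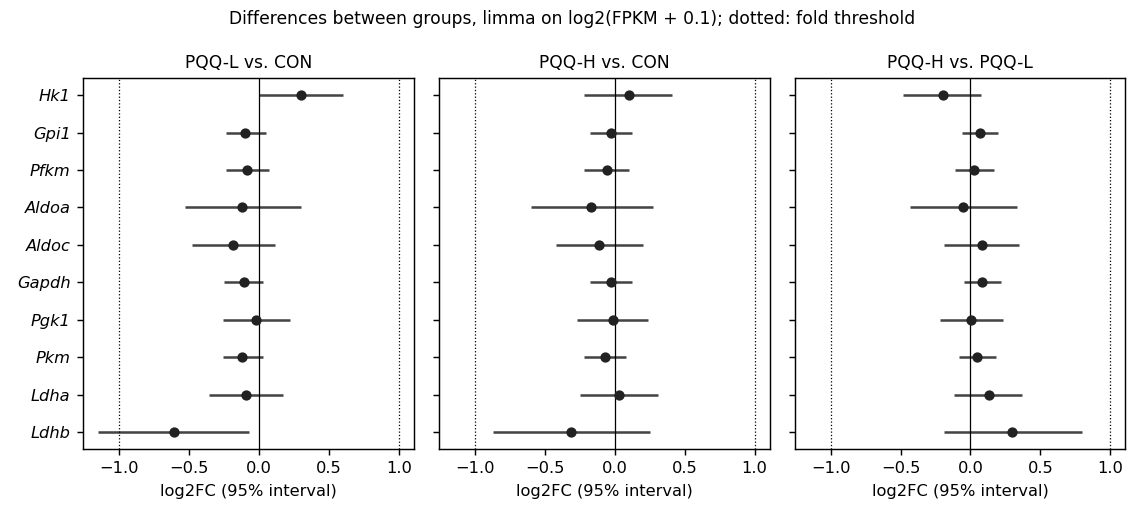
The log2FC of each gene (points) with its 95% interval (lines) in the 3 comparisons, from limma on log2(FPKM + 0.1), with dotted lines at the fold threshold of 1. Only the intervals of Hk1 and Ldhb in PQQ-L vs. CON leave out 0, and the interval of Ldhb there is the 1 that reaches past the threshold.

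With PQQ at 10 mg/kg/day, 0 of the 10 genes passed the thresholds against CON, where 0.819% of all genes were called. None had an unadjusted p below 0.05, against 7.88% of all genes on the lower and 1.85% on the higher side, and none had groups without overlap (7.08% of all genes). With voom, 0 of the 10 had an unadjusted or adjusted p below 0.05, against 8.74% of all genes lower and 1.89% higher. Ldhb had a log2FC of -0.31 (SE 0.26, 95% interval -0.87 to 0.25, limma adjusted p = 0.764). It rested on single libraries, with -0.52 without CON 2, -0.10 without CON 1 and -0.079 without PQQ-H 3. Hk1 had 0.10 (-0.22 to 0.41), Aldoa -0.17 (-0.60 to 0.27) and Aldoc -0.11 (-0.42 to 0.20). Gpi1 (-0.028), Gapdh (-0.028), Pgk1 (-0.016) and Ldha (0.03) were nearest to 0. The median was -0.043, close to the -0.027 of all genes, with 8 of 10 genes below CON here, 7 with TPM and 3 with median-of-ratios factors. This comparison and the former use the same 3 CON libraries, so their values are not independent of each other.

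Between the doses, 0 of the 10 genes and 0% of all genes were called between PQQ-H and PQQ-L. At an unadjusted p below 0.05, the share of all genes was 4.60% on the lower and 3.55% on the higher side of PQQ-L, and 4.76% had groups without overlap, but none of the 10 met any of these. With voom, 0 of the 10 had an unadjusted p below 0.05, against 4.86% lower and 3.05% higher of all genes. Hk1 had a log2FC of -0.20 (SE 0.13, 95% interval -0.48 to 0.072, limma adjusted p = 0.587). Ldhb had 0.30 (SE 0.23, -0.19 to 0.80, limma adjusted p = 0.622). Without PQQ-H 3, Ldhb had 0.53, and without PQQ-H 1 or PQQ-H 2 it had 0.18. With the striatal marker sum as a covariate these became -0.041 and -0.0062. The other 8 genes lay between -0.05 (Aldoa) and 0.13 (Ldha). In sign, 8 of the 10 were higher in PQQ-H here and with median-of-ratios factors, but 2 with TPM. With TPM the median of all genes was -0.11 and 8 of the 10 lay above that median. Since a scaling moves all genes of a library alike, this place relative to the median is no separate result.

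The libraries with high striatal markers were also those at the ends of the Hk1 and Ldhb ranges. In the 4 libraries Hk1 was 50.4 to 65.0, and in the other 8 it was 69.8 to 79.8. Ldhb was 502 to 679.9 in the 4 and 252 to 396 in the other 8. These 4 were thus the lowest libraries for Hk1 and the highest for Ldhb, with no overlap, while the other 8 genes overlapped between the 2 sets. Of all genes tested, 24.9% (3441) separated these libraries completely, so 2 of 10 is near that share. The 4 libraries were 2 of 3 in CON, 0 of 5 in PQQ-L and 2 of 4 in PQQ-H, and their part in the difference between groups was not tested beyond the covariate and the fit without them.

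Among the 8 libraries with low striatal markers, Ldhb had the strongest correlation of the 10 genes with the marker sum. Its Pearson r was 0.75 (exact permutation p = 0.0370) and its Spearman rho 0.76 (exact permutation p = 0.0368). Adjusted over the 10 genes, these became 0.370 and 0.368 (exact permutation tests), so the relation failed the correction. Without the 2 libraries farthest from the median marker sum, r was 0.71. For Hk1, r was -0.58 (exact permutation p = 0.148) and rho -0.52 (exact permutation p = 0.197), and the other 8 genes had r between -0.11 and 0.53. These relations were chosen after the values had been seen.

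**Figure D4:**
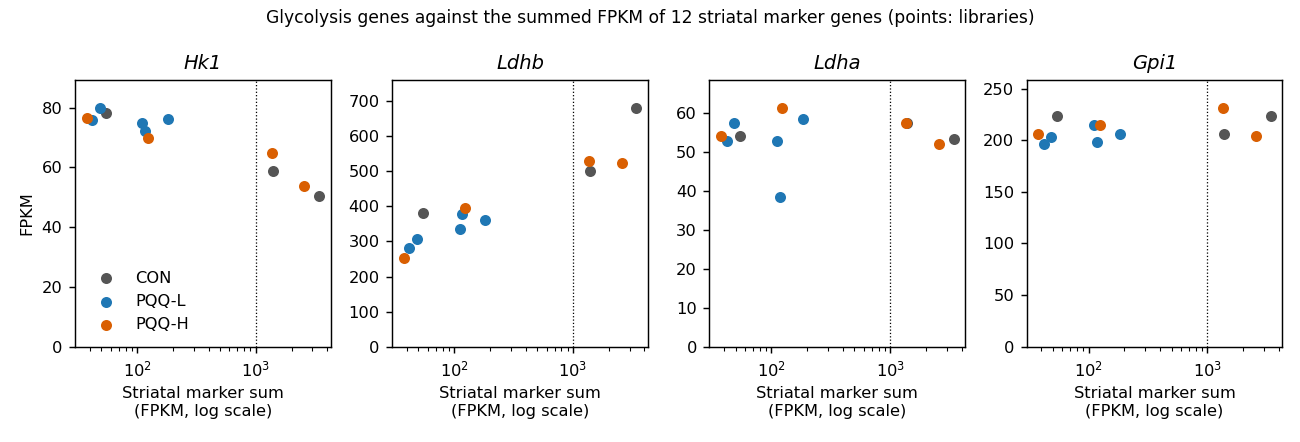
FPKM of Hk1, Ldhb, Ldha and Gpi1 against the summed FPKM of 12 striatal marker genes (log axis), with 1 point per library coloured by group and a dotted line at 1000. The 4 libraries right of the line hold the lowest Hk1 values (50.4 to 65.0) and the highest Ldhb values (502 to 679.9), while Ldha and Gpi1 overlap on both sides.

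A ratio of 2 genes in the same library does not depend on library scaling. The log2 ratio of Ldhb to Ldha, which sets the subunit make-up of lactate dehydrogenase at the RNA level, was 3.20 ± 0.44 (SD, n = 3) in CON, 2.68 ± 0.36 (n = 5) in PQQ-L and 2.86 ± 0.51 (n = 4) in PQQ-H. The differences were -0.52 for PQQ-L vs. CON (exact permutation p = 0.125), -0.34 for PQQ-H vs. CON (exact permutation p = 0.429) and 0.18 for PQQ-H vs. PQQ-L (exact permutation p = 0.595). Ldhb made up 82.3% to 92.7% of the summed FPKM of both genes, with the lowest share in PQQ-H 3 and the highest in CON 1. For Aldoc to Aldoa, the log2 ratios were 7.04 ± 0.51, 6.97 ± 0.20 and 7.10 ± 0.39, and the differences were -0.072, 0.059 and 0.13 (exact permutation p = 0.839, 0.886 and 0.508). Since the low Aldoa row may not hold all Aldoa transcripts, this ratio may misstate the balance of the isoforms. No ratio passed the test, since the smallest p adjusted over the 6 two-sided exact permutation tests was 0.750. Without PQQ-L 1, whose Ldha was low, the Ldhb to Ldha difference in PQQ-L vs. CON was -0.67, with an exact permutation p of 0.0286, the smallest that 4 against 3 libraries can give, before any adjustment. The smallest p that the group sizes allow in these tests is 0.0179, 0.0286 and 0.00794.

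Of 21 further glycolysis enzymes, 15 were tested. Tpi1, triose phosphate isomerase, and the enolases Eno1 and Eno2 were among the abundant ones, with medians of 450.4, 358 and 283. Hk2 (0.929) and Eno3 (3.14) were low, and Pklr, Pgk2 and Ldhc, which belong to liver or testis, were at or near 0. Of the 15, 0 passed an adjusted p below 0.05 in any comparison. In PQQ-L vs. CON, Bpgm, which makes 2,3-bisphosphoglycerate, had a log2FC of -0.34 (SE 0.13, limma adjusted p = 0.233). In PQQ-H, the ADP-dependent glucokinase Adpgk had -0.27 against CON (limma adjusted p = 0.455) and -0.32 against PQQ-L (limma adjusted p = 0.580). The phosphoglycerate mutase Pgam2 had 0.45 against PQQ-L (limma adjusted p = 0.580). Like Hk1, the phosphofructokinase subunit Pfkl and the mutase Pgam1 were lowest in the 4 libraries with high striatal markers (30.5 to 42.7 against 45.3 to 77.3, and 101 to 116 against 121 to 142), and like Ldhb, Bpgm and Pgam2 were highest there (55.4 to 62.1 against 40.4 to 49.9, and 7.48 to 8.99 against 3.99 to 7.46). These 4 were all of the 15 tested enzymes that separated these libraries completely, and they are named for that pattern. Of all genes tested, 24.9% did so, so 4 of 15 is near that share.

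The further glycolysis enzymes, the regulators of glycolysis and the pathways around it showed no called gene. Over these 9 lists of 122 genes, of which 110 were tested, 0 had an adjusted p below 0.05 in any comparison (limma). The 110 include the 15 enzymes just described. Among the 110, an unadjusted p below 0.05 came with a lower level in 24 and a higher one in 9 in PQQ-L vs. CON, with 14 lower and 2 higher in PQQ-H vs. CON, and 3 lower and 4 higher in PQQ-H vs. PQQ-L. Their median log2FC was -0.089, -0.056 and -0.024. Beside these stand 11.6% of all genes lower and 8.92% higher at the low dose, 7.88% and 1.85% at the high dose, and 4.60% and 3.55% between the doses.

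Glycogen metabolism held the smallest p of these lists. Gbe1, the glycogen branching enzyme, was at 5.13 ± 1.0 in CON, 3.45 ± 0.330 in PQQ-L and 3.29 ± 0.371 in PQQ-H, with a log2FC of -0.55 (limma adjusted p = 0.107) and -0.62 (limma adjusted p = 0.0691). Pygm, the muscle-type glycogen phosphorylase that astrocytes also express, had means of 17.4 ± 4.04, 11.1 ± 1.89 and 10.6 ± 2.25, with -0.63 (limma adjusted p = 0.183) and -0.71 (limma adjusted p = 0.164). At an unadjusted p below 0.05, this list of 14 had 3 members below and 3 above CON in PQQ-L, and 4 below and 0 above in PQQ-H. The same shares of all genes apply, 11.6% lower and 8.92% higher in PQQ-L and 7.88% and 1.85% in PQQ-H.

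Among carriers, Bsg, the chaperone of lactate transporters, had 362 ± 62.2 in CON, 257 ± 21.0 in PQQ-L and 272 ± 34.3 in PQQ-H. Its log2FC was -0.48 (SE 0.12, limma adjusted p = 0.134) and -0.41 (SE 0.13, limma adjusted p = 0.271). Slc16a7, the neuronal lactate and pyruvate transporter, was at 2.56 in PQQ-L and 1.52 in CON (log2FC 0.77, limma adjusted p = 0.196). Like Hk1, Slc16a7 was lowest in the 4 libraries with high striatal markers. It was at 1.62 or less there and at 2.08 to 3.13 in the other 8. CON 2, at 2.21, lay inside the PQQ-L range. Of all genes tested, 24.9% separated these libraries completely, and their part in the Slc16a7 difference was not tested. Emb, another transporter chaperone, was at 6.77 in PQQ-H and 14.2 in CON (log2FC -0.97, limma adjusted p = 0.348). Bsg is also abundant in endothelium and in choroid plexus, and choroid plexus markers were highest in CON. The part of choroid plexus RNA in the Bsg and Emb values was not tested.

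Where pyruvate enters mitochondria, the phosphatases that activate pyruvate dehydrogenase were lower in both doses without passing the test. Pdp1 had a log2FC of -0.71 and -0.62 (limma adjusted p = 0.188 and 0.378) and Pdp2 -0.35 and -0.29 (0.194 and 0.427). Of the 12 genes in this list, these 2 alone had an unadjusted p below 0.05 against CON at either dose. That stands beside 11.6% lower and 8.92% higher of all genes in PQQ-L, and 7.88% and 1.85% in PQQ-H. In PQQ-L, 7 of the 12 were above CON (median log2FC 0.11), and in PQQ-H 5 were (median -0.05). In the tricarboxylic acid cycle, 7 of 19 genes in PQQ-L and 2 of 19 in PQQ-H were lower than CON at an unadjusted p below 0.05 (11.6% and 7.88% of all genes), and 0 were higher (8.92% and 1.85%). Idh2, the mitochondrial NADP-dependent isocitrate dehydrogenase, had -0.51 and -0.43 (limma adjusted p = 0.142 and 0.289), Sdhc -0.33 in PQQ-L (0.207) and Ogdh -0.23 in PQQ-H (0.329). Of the NADH shuttles, which carry the electrons of Gapdh into mitochondria, Mdh1 had -0.25 in PQQ-L (limma adjusted p = 0.206) and -0.17 with the high dose (0.576). At an unadjusted p below 0.05, 3 of the 11 shuttle genes were lower and 1 higher than CON in PQQ-L (11.6% and 8.92% of all genes). The lower ones included Slc25a13, whose log2FC of -1.15 was the largest change of this list, and the higher one was Gpd2 (log2FC 0.64). In PQQ-H, 0 were lower and 0 higher (7.88% and 1.85% of all genes).

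The pentose phosphate pathway, which branches from glucose 6-phosphate, had 4 of 8 genes lower in PQQ-L and 1 of 8 in PQQ-H than in CON at an unadjusted p below 0.05, where 11.6% and 7.88% of all genes were lower. Pgls, its lactonase, had a log2FC of -0.43 (limma adjusted p = 0.126), and Tkt, transketolase, had -0.29 (limma adjusted p = 0.187) at the low and -0.32 (0.194) at the high dose. In gluconeogenesis, which runs the pathway backwards, Pcx, the pyruvate carboxylase of astrocytes, had -0.43 and -0.34 (limma adjusted p = 0.186 and 0.422), and G6pc3 had -0.33 in PQQ-H (0.347). Among regulators of glycolysis, 0 of 13 were lower and 3 higher than CON in PQQ-L at an unadjusted p below 0.05, beside 11.6% and 8.92% of all genes. Pfkfb4, which controls the activator of phosphofructokinase, had 0.32 (limma adjusted p = 0.233) and Mlxip, a glucose-sensing transcription factor, 0.42 (0.235). In PQQ-H vs. CON, Pfkfb3 had 0.23 (limma adjusted p = 0.503). Between the doses, Prkaa2, a catalytic subunit of AMP-activated kinase, had -0.49 (limma adjusted p = 0.580).

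**Figure D5:**
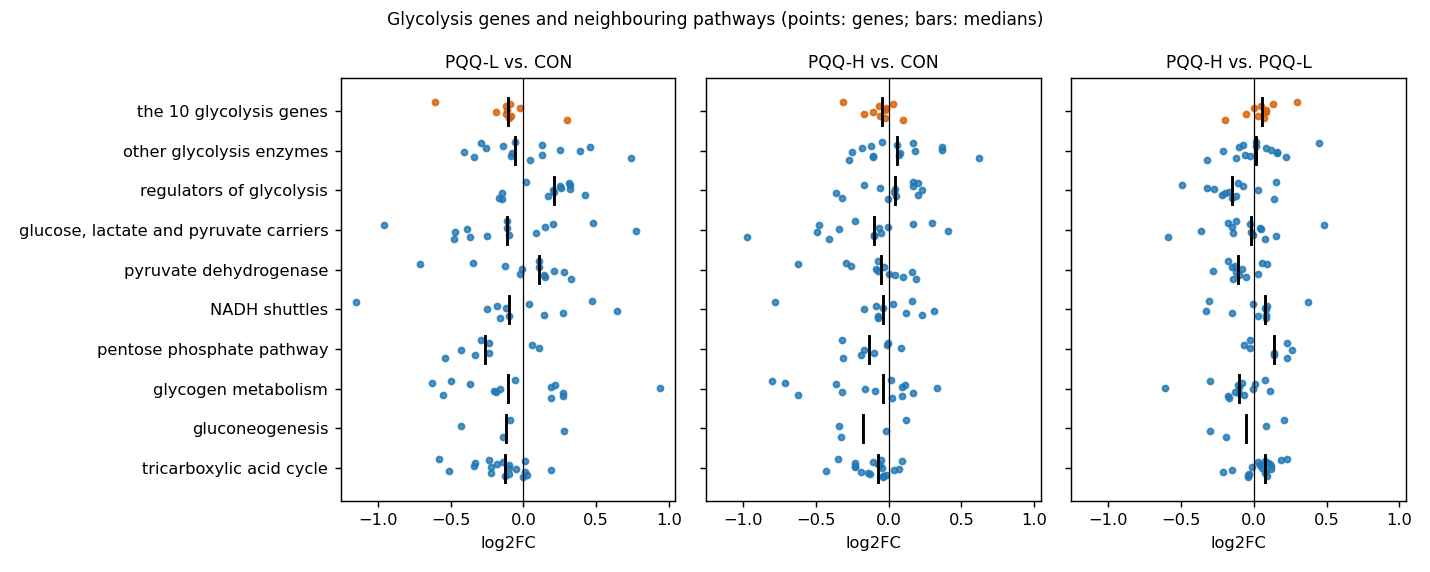
The log2FC of the 10 glycolysis genes (orange) and of the tested genes of 9 further lists (blue) in the 3 comparisons, with 1 point per gene and a bar at each median. The lists hold other glycolysis enzymes, regulators of glycolysis and neighbouring pathways. The medians of the 10 glycolysis genes are -0.10, -0.043 and 0.059, and no point has an adjusted p below 0.05.

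The mean profile of the 10 genes, taken as the mean of their log2 values after centring each gene over the 12 libraries, ran from -0.13 in PQQ-L 1 to 0.10 in CON 2. The genes most like it, out of all others tested, were Alkbh6 (Pearson r = 0.93 over 12 libraries), Pcbd2 (0.91) and Pnp (0.90), which makes purine bases from nucleosides. Over the 8 libraries with low striatal markers, r was 0.90, 0.90 and 0.98. These are the highest of many correlations over few libraries, given as a description.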

How the data were processed

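RNA-seq of 12 hippocampal libraries was analysed. The authors used TRIzol, an Illumina NovaSeq instrument, fastp, HISAT2 and HTSeq-count, and deposited FPKM, which divide reads by gene length and library total. The submitters name the build mm39, and annotation, strandedness and program versions are not given in the sources used here. Labels gave the groups, and nothing in them ties a library to a mouse, so p-values measure the spread between these libraries. Whole reads were recovered from the FPKM steps for 100% of 25563 genes above 0 in at least 2 libraries (tolerance 0.02 reads, tested on simulated data of 2000 genes, 99.8% recovered). The totals were 29654553 to 38179496 reads. None of the 19 pairs of same-group libraries was a duplicate (chi-square of the reads at least 17.4 times its degrees of freedom).

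The 13796 genes whose FPKM averaged 0.5 or more were tested with limma 3.58.1 (R 4.3.3), with trend, on log2(FPKM + 0.1) in 1 fit of the 12 libraries. A pseudocount understates changes of low genes. The simulated step of PQQ-L vs. CON called 196 of 200 genes given a log2FC of 3, 8 others, and 0 in a contrast without change (13796 genes). That change is far larger than any of the 10 genes, and the simulated noise was independent between genes. The step therefore does not show how often changes of the size seen here would be called. Ratios were compared with two-sided exact permutation tests in Python 3.11.15 (scipy 1.17.1, numpy 2.4.6, pandas 2.3.3, matplotlib 3.10.9). The fits were repeated under 11 alternatives and without each of the 12 libraries. A further 2 alternatives, the striatal covariate and the fit without 4 libraries, were chosen after the marker sums were seen. The genes named are the 10 members, the 2 genes with the smallest p per pathway list and comparison (a selection of these is printed), the 3 genes most like the mean profile, and genes picked for a pattern where stated. A gene under this rule is not reported here. Members and lists were chosen with earlier results of these data known. Shared stretches of 50 bases were counted in GENCODE M21 transcripts. The counts used in the authors' own tests were not used here.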

Additional observations from a re-analysis of the deposited data

Results flagged for a closer look

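In 24 groups of 4 or 5 values, 2 single libraries stood far from the rest of their group, where chance gives about 1 in 20. The Aldoc FPKM of PQQ-H 2 was 492, while the other PQQ-H libraries had 329.8 to 356, and the gap made up 0.837 of the range of the group. The Ldha FPKM of PQQ-L 1 was 38.6, while the other PQQ-L libraries had 52.8 to 58.5, with a gap of 0.712 of the range.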

How the results depend on the processing

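None of the 10 genes was called in any fit. Of 250 alternative values of their log2FC per comparison, 239 kept their sign in PQQ-L vs. CON, 235 in the comparison of the high dose with CON and 231 between the doses. Part of these values could not change. A log2FC stays as it is with another filter, without the trend or with only the 2 groups compared. It also stays when a library outside the 2 groups is left out. These counts therefore overstate how steady the signs are. The only adjusted p below 0.05 were those of Hk1 (0.0308) and Ldhb (0.0470) in PQQ-L vs. CON without CON 2. The genes called over the whole table, 65 in PQQ-L vs. CON, became 42 at a mean FPKM of at least 1, 112 without a filter, 123 with voom, 1 without the 4 libraries and 42 with the striatal covariate. The 113 of PQQ-H vs. CON became 68, 170, 44 with only the 2 groups compared, and 6 without the 4 libraries. With single libraries left out, they ran from 23 (without CON 1) to 866 (without CON 2) and from 62 (without CON 3) to 153 (without PQQ-H 2). PQQ-H vs. PQQ-L gave 0 calls in every fit, with 1125 genes at an unadjusted limma p below 0.05.

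The replicate numbers were tried as a replicate block, which gave 23 and 48 calls and turned the sign of Ldha in PQQ-H vs. CON (-0.019). The numbers did not pair the libraries, since same-numbered pairs correlated from -0.62 to 0.72 and 4 of 12 libraries correlated best with their own number.

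With TPM, the median of the 10 genes was 0.0062 in PQQ-L vs. CON and -0.028 between the doses. Signs turned with TPM in PQQ-L vs. CON for Gpi1 (0.013), Pfkm (0.026), Pgk1 (0.09) and Ldha (0.016), against CON at the high dose for Pgk1 (0.0075), and in PQQ-H vs. PQQ-L for Gpi1 (-0.017), Pfkm (-0.06), Aldoc (-0.0064), Gapdh (-0.0034), Pgk1 (-0.083) and Pkm (-0.039). With median-of-ratios factors they turned for Pgk1 in PQQ-L vs. CON (0.02), and at the high dose for Gpi1 (0.04), Pfkm (0.01), Gapdh (0.04), Pgk1 (0.052) and Pkm (0.00015). Without the 4 libraries, Hk1 turned in PQQ-L (-0.049) and PQQ-H (-0.10) against CON, and Aldoa (0.13), Aldoc (-0.07) and Ldhb (-0.069) in PQQ-H vs. PQQ-L, and the covariate turned the last 3 too (0.089, -0.029 and -0.0062). The shifts of scaling follow from its construction, and the cause of the others was not tested.

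With single libraries left out, values crossed 0 in PQQ-L vs. CON for Aldoa (-0.27 to 0.016), Pgk1 (-0.076 to 0.054) and Ldha (-0.14 to 0.0087), in PQQ-H vs. CON for Hk1 (-0.046 to 0.27), Pfkm (-0.14 to 0.019), Aldoc (-0.24 to 0.018), Pgk1 (-0.10 to 0.059) and Ldha (-0.012 to 0.068), and in PQQ-H vs. PQQ-L for Aldoa (-0.15 to 0.10), Aldoc (-0.047 to 0.15) and Pgk1 (-0.078 to 0.064). The log2 ratio of Aldoc to Aldoa ran from -0.29 to 0.21 in PQQ-L vs. CON, where it was 0.23 with only the libraries whose name opens with L, and from -0.16 to 0.34 in PQQ-H vs. CON. The ratio of Ldhb to Ldha ran from -0.71 to -0.28 in PQQ-L vs. CON, and passed an unadjusted p of 0.05 only without PQQ-L 1 (-0.67, exact permutation p = 0.0286). Counting error was largest for Aldoa, at 125 to 243 reads per library, and stayed below its spread within groups.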
